A study of Rattus norvegicus with 9 samples.

Results

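The 6 hedgehog pathway genes Ptch1, Smo, Gli1, Gli2, Gli3 and Hhip were followed by RNA sequencing in cultured rat cardiac fibroblasts, the connective tissue cells of the heart that make its matrix. The genes were taken by symbol from the 17337 genes of the count table, where each of the 6 was present. The 9 libraries came from Sprague Dawley rats, an outbred laboratory stock, with no treatment or genetic change named in the labels. There were 3 fetal libraries from embryonic day 18, 3 neonatal libraries from postnatal day 1 and 3 adult libraries from animals 7 weeks old. Cells of every age, marked P0 in the labels, were grown to confluency in DMEM that held serum, antibiotics and ascorbic acid, so the measurements describe cells after growth on plastic. The labels name no sorting step and do not say whether the libraries of an age came from separate animals or pools, so the p-values measure only the spread between these libraries, which may be technical.

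Hedgehog ligands are secreted proteins that act on neighbouring cells. Without ligand, the receptor Patched 1 (Ptch1) keeps the membrane protein Smoothened (Smo) inactive, and Gli2 and Gli3 are processed or held back in and around the primary cilium. Ligand bound to Patched 1 releases Smoothened, after which the Gli proteins act as transcriptional activators. Gli1, Ptch1 and Hhip are well-known targets of the active pathway, and the Ptch1 and Hhip proteins in turn restrain it. In the developing heart, hedgehog signals are known for their roles in septation and in the growth of coronary vessels.

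Because Ptch1 is a textbook Gli target, the stretch before its start is shown beside those of Gli3 and Smo, the tested member with the largest fall from fetal to adult cells and a member with no detected change from fetal to neonatal cells. The sequences are from RefSeq on GRCr8, whereas all gene positions below are on rn6, and 5 of the 6 genes matched an entry. The window of 250 bases before the start was searched on both strands for GACCACCCA, the consensus bound by Gli proteins, and for its inner part CCACCCA, which every match of the longer motif also contains. Capitals mark a match, read here on the gene's own strand.
Ptch1, chr17:1555321-1555570, plus strand: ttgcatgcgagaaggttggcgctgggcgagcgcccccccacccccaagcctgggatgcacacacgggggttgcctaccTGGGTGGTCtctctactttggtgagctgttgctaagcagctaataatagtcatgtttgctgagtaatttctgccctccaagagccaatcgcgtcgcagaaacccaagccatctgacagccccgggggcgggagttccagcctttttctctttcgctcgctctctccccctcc
Gli3, chr17:54405199-54405448, minus strand: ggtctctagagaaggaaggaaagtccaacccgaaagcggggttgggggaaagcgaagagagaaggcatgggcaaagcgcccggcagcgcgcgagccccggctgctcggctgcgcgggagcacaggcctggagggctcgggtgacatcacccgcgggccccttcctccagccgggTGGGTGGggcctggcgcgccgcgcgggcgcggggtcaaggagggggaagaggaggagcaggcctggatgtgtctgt
Smo, chr4:59310834-59311083, plus strand: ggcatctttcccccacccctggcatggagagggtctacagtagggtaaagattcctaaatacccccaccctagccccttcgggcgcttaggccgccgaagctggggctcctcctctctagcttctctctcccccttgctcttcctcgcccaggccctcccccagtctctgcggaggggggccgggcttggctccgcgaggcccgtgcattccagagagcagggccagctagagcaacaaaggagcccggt
The Ptch1 window held GACCACCCA on the opposite strand, with the match beginning 172 bases before the start. The Gli3 window held only the shorter motif, also on the opposite strand, 76 bases before the start. Neither motif was found in the windows of Smo, Gli2 and Hhip. Over all 33469 promoters of the same length, 0.338% held GACCACCCA and 7.93% held CCACCCA. The Ptch1 window lies inside the RefSeq span of the gene, which has a transcript that begins farther upstream, and the gene is on the minus strand in rn6. A match is a run of letters and not a measured site.

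Assigned counts numbered 16277129 to 22141173 per fetal library, 16241217 to 22850491 per neonatal library and 13392825 to 13810825 per adult library. Fibroblast markers were abundant at every age, with a summed level of 26495 to 76919 CPM (counts per 1000000, scaled by TMM), although Col1a2 was at or below 0.976 CPM in all 9 libraries. Other cell types were also visible in the flasks. The 14 macrophage markers summed to 15.6 to 80.5 CPM in fetal, 177.0 to 194 in neonatal and 4837 to 6721 in adult libraries, and for all 14 every adult library exceeded the 6 earlier ones. The 12 cardiomyocyte markers summed to 7695 to 11525 CPM in fetal, 5401 to 5981 in neonatal and 305 to 321 in adult libraries, and all 12 were lowest in the adult group. Fetal replicate 3 stood apart: it lay 77.5 and 77.1 from fetal replicates 1 and 2 in Euclidean distance over log2 CPM, while those lay 24.7 from each other. It was above both other fetal libraries for 7 of the 7 lung epithelial markers with fetal counts and for 13 of 13 macrophage markers. It was below both of them for 8 of 10 fibroblast, 7 of 8 mural cell and 7 of 12 cardiomyocyte markers. Its fibroblast markers summed to 26495 CPM, against 53252 and 50095 CPM in fetal replicates 1 and 2. The calls and low levels that it moves are also given without it.

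Across the 3 ages, Ptch1, Gli2 and Gli3 were highest in fetal cells, Smo was lower in adult cells than at both earlier ages, and Gli1 and Hhip were close to the detection floor in nearly all libraries. Folds and tests are from edgeR's quasi-likelihood test on the raw counts, with Benjamini-Hochberg adjustment across the 11337 tested genes. In a culture that holds several cell types, fewer cells of a type and less RNA per cell cannot be told apart.

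Ptch1 (chromosome 17, 1032242 to 1085885, minus strand, 23 exon intervals) encodes the hedgehog receptor. Its level was 16.6, 17.5 and 20.1 CPM in the fetal libraries, 7.71, 8.92 and 6.73 CPM in the neonatal and 8.72, 9.17 and 9.44 CPM in the adult libraries. All 3 fetal libraries were above every later one, and the neonatal and adult libraries overlapped. From fetal to neonatal cells the mean fell from 18.1 ± 1.84 to 7.79 ± 1.10 CPM (SD, n = 3), which is -1.21 on the log2 scale (SE 0.135, edgeR adjusted p = 2.552e-04). The adult mean of 9.11 ± 0.360 CPM was also below the fetal one (log2 -0.99, SE 0.135, edgeR adjusted p = 1.334e-04). The log2 difference of adult from neonatal cells was 0.22, with a 95% interval from -0.09 to 0.53 and an edgeR adjusted p of 0.188. Ptch1 transcripts were therefore down by 2.31-fold at postnatal day 1 and showed no further fall that passed the test.

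**Figure D1:**
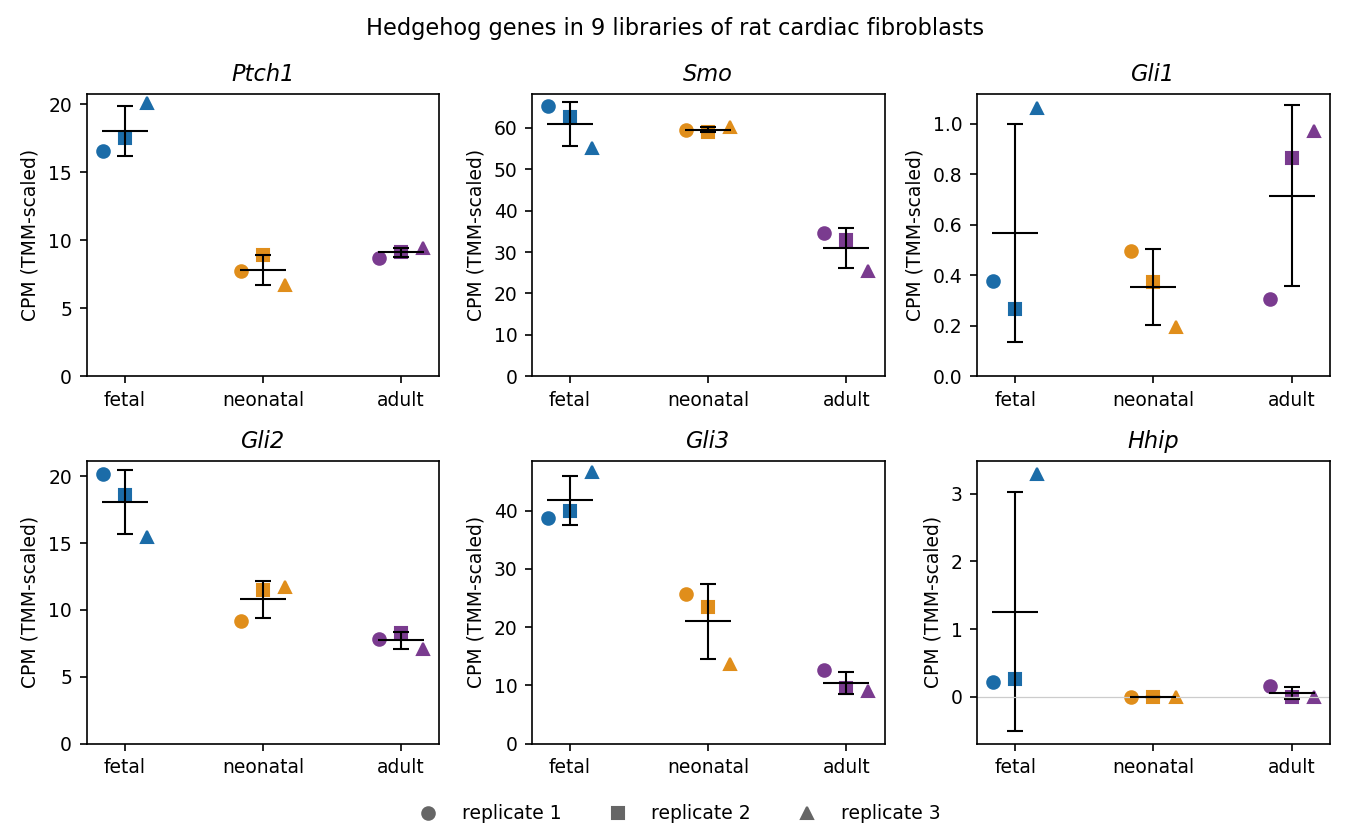
Level of each hedgehog gene in every library. The y axis is TMM-scaled CPM on a linear scale that differs between panels, the x axis is age, symbols are single libraries, and the bars are the mean ± SD of 3 libraries. The fetal points of Ptch1 lie between 16.6 and 20.1 CPM, above all later points, whereas in Hhip 1 fetal library reaches 3.29 CPM and the other libraries are at 0.265 CPM or lower.

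Hhip (chromosome 19, 31525134 to 31614487, plus strand) encodes a membrane-anchored decoy that binds hedgehog ligands. It had 4, 6 and 62 counts in the fetal libraries, 0, 0 and 0 in the neonatal and 2, 0 and 0 in the adult ones. Fetal replicate 3 thus held 62 of the 72 fetal counts. In CPM the fetal values were 0.216, 0.265 and 3.29, with a mean of 1.26 ± 1.76 that was 0.240 without replicate 3. At a floor of 3 counts per library, the fetal mean was 7.57 times the mean neonatal floor and 5.63 times the mean adult floor. Without replicate 3 it was 1.45 and 1.07 times these floors. The ratios do not cover counting error in the fetal counts or the spread between libraries.

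Hhip did not pass the filter on low counts and has no test in the fit that gives the other values. In edgeR's fit with no filter, an analysis chosen after seeing the data, the neonatal decrease from fetal cells had an adjusted p of 0.0354 and the adult decrease one of 0.0450. Without fetal replicate 3 the values were 0.0264 and 0.130, so the adult call was lost. DESeq2 gave adjusted p-values of 0.00145 and 0.0181 with all libraries. Adult and neonatal cells did not differ past the threshold by edgeR (adjusted p = 0.447) or DESeq2 (0.360).

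The library with most of the Hhip counts was also the one with lung epithelial transcripts. Nkx2-1, a transcription factor of lung and thyroid epithelium, was at 0.108, 0.132 and 9.83 CPM in fetal replicates 1 to 3 and at 0 in all 6 later libraries. Cldn18, a tight junction protein whose lung form marks alveolar epithelium, was at 1.35, 1.15 and 58.5 CPM in the fetal libraries, and Scgb1a1, the club cell secretoglobin, at 0.162, 0.265 and 12.96 CPM. The 9 lung epithelial markers in the table summed to 4.43, 3.44 and 89.8 CPM in the fetal libraries, whereas neonatal sums were 1.32 to 1.77 and adult sums 3.97 to 5.17 CPM. Of these 9 markers, 2 had no count in any fetal library. Their part in the Hhip values was not tested.

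**Figure D2:**
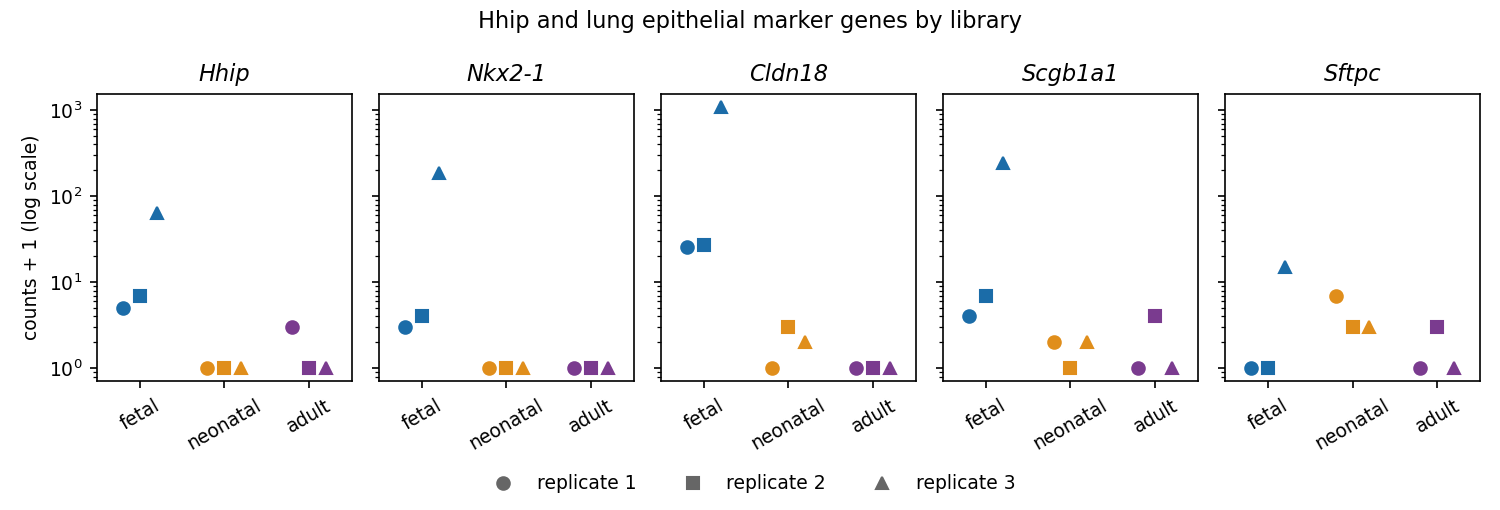
Counts of Hhip and of 4 lung epithelial markers in every library. The y axis is the count plus 1 on a log scale, the x axis is age, and symbols are replicates 1 to 3. Fetal replicate 3 is the highest library in all 5 panels, with 62 counts of Hhip, 185 of Nkx2-1 and 1101 of Cldn18.

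Smo (chromosome 4, 57019941 to 57041779, plus strand, 12 exon intervals) encodes Smoothened, the membrane protein that carries the signal into the cell. It was at 65.2, 62.7 and 55.1 CPM in fetal, 59.6, 59.0 and 60.2 CPM in neonatal and 34.6, 32.9 and 25.5 CPM in adult libraries. The fetal and neonatal values overlapped, and every adult library was below all of them. The neonatal mean of 59.6 ± 0.591 and the fetal mean of 61.0 ± 5.27 CPM differed by -0.033 on the log2 scale, with a 95% interval from -0.28 to 0.22 (edgeR adjusted p = 0.837). The adult mean was 31.0 ± 4.85 CPM, a log2 difference of -0.98 against fetal cells (SE 0.114, edgeR adjusted p = 4.595e-05) and -0.94 against neonatal cells (SE 0.114, edgeR adjusted p = 8.289e-05). Smo was thus 1.92-fold lower in adult than in neonatal cells.

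Gli3 (chromosome 17, 52294942 to 52569036, minus strand, 16 exon intervals) encodes the Gli protein known best as a repressor in the absence of ligand. Its level was 38.8, 40.0 and 46.6 CPM in fetal, 25.8, 23.4 and 13.7 CPM in neonatal and 12.6, 9.61 and 9.06 CPM in adult libraries. No libraries of different ages overlapped, and neonatal replicate 3 was closer to the highest adult library than to the other neonatal ones. The mean went from 41.8 ± 4.21 to 21.0 ± 6.38 to 10.4 ± 1.92 CPM. The adult level was 4.01-fold below the fetal one (log2 -2.002, SE 0.230, edgeR adjusted p = 4.508e-05), the largest change among the 5 tested genes. The step from fetal to neonatal cells was -0.99 (SE 0.215, edgeR adjusted p = 0.00771) and the step from neonatal to adult cells -1.01 (SE 0.230, edgeR adjusted p = 0.00389). Without neonatal replicate 3 these steps were -0.75 and -1.25, with adjusted p-values of 0.0112 and 2.812e-04.

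Gli2 (chromosome 13, 34829021 to 34885485, minus strand, 12 exon intervals) encodes the Gli protein known as the main primary activator. It was measured at 20.1, 18.6 and 15.5 CPM in fetal, 9.19, 11.5 and 11.7 CPM in neonatal and 7.81, 8.31 and 7.04 CPM in adult libraries. The 3 ages did not overlap, although the lowest neonatal and highest adult libraries lay close together. The means were 18.1 ± 2.39, 10.8 ± 1.39 and 7.72 ± 0.638 CPM. Gli2 fell by 0.74 on the log2 scale from fetal to neonatal cells (SE 0.143, edgeR adjusted p = 0.00418) and was lower by 2.34-fold in adult than in fetal cells (log2 -1.23, SE 0.149, edgeR adjusted p = 5.917e-05). The step from neonatal to adult cells was smaller, at -0.48 (SE 0.150, edgeR adjusted p = 0.0185). That call was lost without neonatal replicate 2 (adjusted p = 0.0638), neonatal replicate 3 (0.0612) or adult replicate 3 (0.0613).

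Gli1 (chromosome 7, 70620794 to 70629964, minus strand, 11 exon intervals) encodes an activator that is itself a target of the pathway and is widely used as its readout. It had 7, 6 and 20 counts in fetal, 9, 8 and 3 counts in neonatal and 4, 12 and 13 counts in adult libraries. The highest fetal library was replicate 3, and all 3 ages overlapped. In CPM the means were 0.568 ± 0.432, 0.354 ± 0.151 and 0.715 ± 0.359, and the fetal mean was 0.321 without replicate 3. No change was detectable at this depth: the log2 differences were -0.63 from fetal to neonatal cells (95% interval -2.11 to 0.85), 0.35 from fetal to adult cells (-1.05 to 1.76) and 0.98 from neonatal to adult cells (-0.52 to 2.48). The edgeR adjusted p-values were 0.478, 0.627 and 0.223, and the intervals span changes larger than those found in Ptch1. Without fetal replicate 3 the neonatal difference turned to 0.19, and without fetal replicate 2 the adult difference from fetal cells was -0.010.

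The exons of Gli1 share 99 bases, 2.83% of its exon length, with Arhgap9, a GTPase-activating protein gene on the plus strand whose end meets that of Gli1. Arhgap9 was at 0.396 ± 0.393 CPM in fetal, 1.90 ± 0.123 CPM in neonatal and 143 ± 7.19 CPM in adult cells (adult against fetal log2 8.51, SE 0.302, edgeR adjusted p = 3.361e-08). Strand was not used in the counting, per the file headers, so reads of the 2 genes in and beside the shared stretch cannot be told apart. The part of such reads in the adult Gli1 counts was not tested.

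**Figure D3:**
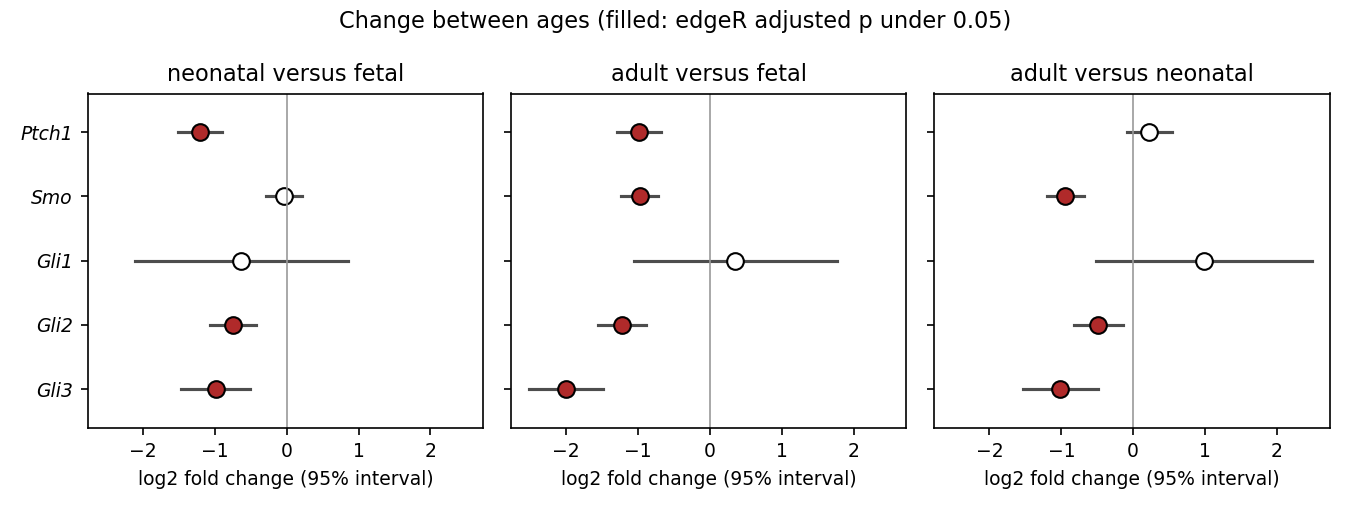
Change of the 5 tested hedgehog genes in each pair of ages. The x axis is the log2 fold change of the first age over the second, points are edgeR estimates, lines are 95% intervals, and filled points have an adjusted p under 0.05. Gli3 has the lowest estimate in adult against fetal cells, -2.002, and the wide lines of Gli1 cross 0 in all 3 panels.

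Set against all genes, the tested members that passed the threshold were all lower at the later age. Of the 5 tested, 3 were lower in neonatal than in fetal cells and 0 higher, where 18.0% of all genes tested were lower, 18.3% higher and 36.3% different in either direction. In adult against fetal cells 4 of 5 were lower and 0 higher, where 35.5% of genes were lower, 34.9% higher and 70.5% different. In adult against neonatal cells 3 of 5 were lower and 0 higher, where 31.8% of genes were lower, 31.6% higher and 63.5% different. The median log2 fold change of the 5 was -0.74, -0.99 and -0.48 in the same order, beside -0.0053, -0.0127 and -0.0065 over all genes tested. With an adult background this large, a call in an adult comparison by itself does not set a hedgehog gene apart. The comparisons share libraries and are not independent of each other.

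The count of 3 lower members in neonatal against fetal cells was the same without fetal replicate 3. There Ptch1 changed by -1.12 (edgeR adjusted p = 5.214e-05), Gli2 by -0.84 (3.722e-04) and Gli3 by -0.90 (0.0188). In adult against fetal cells without that library, Ptch1 changed by -0.91 (6.942e-05), Smo by -1.05 (3.296e-06), Gli2 by -1.33 (3.825e-06) and Gli3 by -1.92 (2.254e-04). With library size alone as the scaling, the median of all genes shifted to -0.18 in neonatal against fetal and to -0.12 in adult against fetal cells. The share of higher genes among those called in neonatal against fetal cells then went from 50.4% to 29.0%, but the member calls and directions were the same.

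Marker genes of other cell types changed level between the same ages as the members. The macrophage and cardiomyocyte marker sums given above moved in opposite directions with age. In neonatal against fetal libraries 11 of 12 cardiomyocyte and 5 of 6 epicardial or mesothelial markers were lower throughout, and 0 were higher. Of the 5 lung mesenchymal markers in the table, 3 were lower in every neonatal than in every fetal library, as Ptch1, Gli2 and Gli3 were, and 2 were higher. The 3 were Tbx4, at 43.8 ± 8.24 CPM in fetal and 0.748 ± 0.0443 CPM in neonatal cells, Tbx5, at 12.8 ± 2.74 and 1.53 ± 0.287 CPM, and Tbx2, at 13.7 ± 1.89 and 4.48 ± 0.282 CPM. The summed level of the 5 was 77.7 to 94.0 CPM in fetal, 100.1 to 104.0 CPM in neonatal and 126 to 250.4 CPM in adult libraries. Most of the later sums was Tcf21, which is also among the fibroblast markers. It was at 11.8 ± 4.25 CPM in fetal, 86.1 ± 2.07 CPM in neonatal and 149 ± 66.8 CPM in adult cells. The 5 genes were not shown here to be particular to lung cells. The 8 mural cell markers summed to 1004 to 2083 CPM in fetal, 3393 to 3508 CPM in neonatal and 1476 to 1683 CPM in adult libraries. Of these 8, 7 were lower in every adult than in every neonatal library, as Smo was, and so were all 12 cardiomyocyte markers. In neonatal against fetal libraries 6 of the 8 mural cell markers were higher throughout and 1 was lower, whereas Smo overlapped. The share of all genes whose libraries separate by age in this way was not counted, here or for the other marker lists. By the edgeR test 18.0% of all genes were lower in neonatal than in fetal cells and 31.8% lower in adult than in neonatal cells. The part of these cell types in the changes of Ptch1, Smo, Gli2 and Gli3 was not tested.

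Levels of different genes were compared per kilobase of exon. On that scale Smo was the most abundant member at every age, with 25.6 ± 2.21 in fetal, 25.0 ± 0.248 in neonatal and 13.003 ± 2.04 CPM per kilobase in adult cells. Gli3 followed in fetal cells with 8.31 ± 0.837, then Ptch1 with 4.20 ± 0.429, Gli2 with 2.94 ± 0.389, Hhip with 0.495 ± 0.694 and Gli1 with 0.162 ± 0.123 CPM per kilobase. Without fetal replicate 3 the means of Hhip and Gli1 were 0.0945 and 0.0918 CPM per kilobase, so their order rests on that library. In adult cells Ptch1 at 2.12 ± 0.0836 and Gli3 at 2.08 ± 0.382 CPM per kilobase lay within their spread of each other. In neonatal cells Ptch1 at 1.81 ± 0.255 and Gli2 at 1.76 ± 0.227 CPM per kilobase were likewise not separated. By CPM per kilobase, 70.6% of the tested genes were below Smo in fetal cells and 51.5% in adult cells, whereas 2.80% and 4.70% were below Gli1.

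Among the 3 Gli genes, the summed level per kilobase was 11.1, 11.1 and 12.1 in fetal, 6.76, 6.63 and 4.69 in neonatal and 3.87, 3.51 and 3.23 in adult libraries. The ages did not overlap in this sum. Gli3 made up 72.7% ± 3.65 of it in fetal, 68.1% ± 8.999 in neonatal and 58.4% ± 5.68 in adult cells. The Gli2 share was 25.9% ± 4.54, 30.3% ± 9.44 and 35.6% ± 2.84, and the Gli1 share 1.39% ± 0.982, 1.63% ± 0.456 and 5.98% ± 3.31. Without fetal replicate 3 the fetal Gli1 share was 0.828%. The adult Gli1 share ranged from 2.26% to 8.62% and its lower end lay below the highest fetal value of 2.51%. Repressor and activator forms are made by processing of the Gli proteins, which transcript levels do not measure.

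**Figure D4:**
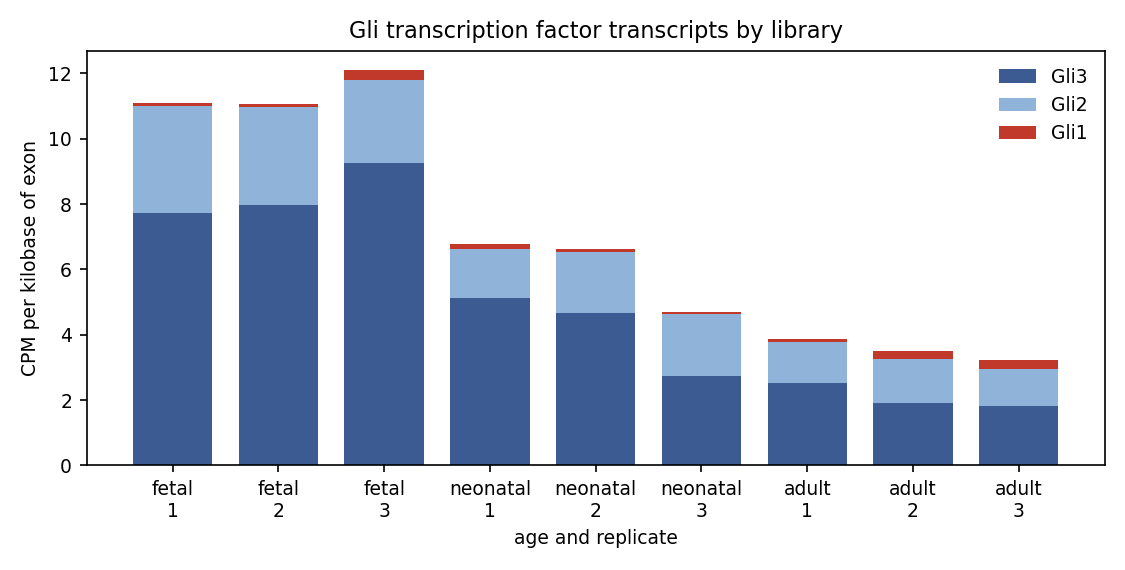
Transcript level of the Gli genes in every library. The y axis is CPM per kilobase of exon, the x axis is age and replicate, and each bar stacks Gli3, Gli2 and Gli1. The summed bars fall from between 11.1 and 12.1 in fetal to between 3.23 and 3.87 in adult libraries, with Gli3 the largest segment throughout.

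The receptor and the transducer kept different time courses. The log2 ratio of Ptch1 to Smo per kilobase was -2.60 ± 0.27 in fetal, -3.78 ± 0.21 in neonatal and -2.59 ± 0.29 in adult cells. Every neonatal library (-3.99 to -3.56) was below every fetal (-2.82 to -2.30) and adult one (-2.83 to -2.27), so the ratio was lowest at postnatal day 1 and the fetal and adult values overlapped. The log2 ratio of Gli1 to Gli3 was -5.59 ± 0.72 in fetal, -4.97 ± 0.10 in neonatal and -3.24 ± 1.00 in adult cells. It rests on few Gli1 counts, and the part of the Arhgap9 overlap described above was not tested.

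Transcripts of the ligands themselves were at or near the floor. Shh had 0 counts in all 9 libraries, which allows a level of up to 0.132 to 0.230 CPM per library at a floor of 3 counts. Ihh had 1, 0 and 5 counts in fetal, 1, 1 and 0 in neonatal and 0, 3 and 0 in adult libraries. Dhh, the ligand known from Schwann cells and testis, had 7, 5 and 9, then 3, 2 and 2, then 3, 8 and 3 counts. Neither Ihh nor Dhh passed the filter, and with no filter edgeR gave Dhh adjusted p-values of 0.141, 0.974 and 0.129 in the 3 comparisons. A change in ligand transcripts was thus not detectable at this depth.

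Genes that release or carry the ligand were better covered. Of the 9 genes listed for ligands and their release, 7 were in the table and 4 were tested. Disp1, which releases lipid-modified ligand from cells that make it, was at 19.2 ± 1.11 CPM in fetal and 11.7 ± 2.71 CPM in adult cells (log2 -0.71, SE 0.154, edgeR adjusted p = 0.00233). Its relative Disp2 was higher after birth, with 2.65 ± 1.05 CPM in fetal against 8.61 ± 2.17 CPM in neonatal cells (log2 1.70, SE 0.294, edgeR adjusted p = 0.00248). Scube1, of a family of secreted carriers of the ligand, fell from 13.6, 14.2 and 3.93 CPM in fetal to 1.98, 2.51 and 2.72 CPM in neonatal libraries (log2 -2.13, SE 0.465, edgeR adjusted p = 0.00785). Scube3 fell later, from 21.1 ± 2.40 CPM in neonatal to 8.64 ± 1.42 CPM in adult cells (log2 -1.29, SE 0.139, edgeR adjusted p = 3.982e-05). In neonatal against fetal cells 1 of the 4 rose and 1 fell, in adult against fetal cells 1 rose and 3 fell, and in adult against neonatal cells 1 fell. Of all genes 18.3%, 34.9% and 31.6% rose and 18.0%, 35.5% and 31.8% fell in these comparisons. The neonatal falls were 2 without fetal replicate 3, the neonatal rises and falls 2 each without adult replicate 1, and the last count 2 without fetal replicate 3 or adult replicate 1.

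At the membrane, 4 further receptor or co-receptor genes were in the table and tested. Cdon, a co-receptor that binds ligand together with Ptch1, was at 32.7, 35.2 and 46.8 CPM in fetal, 30.7, 29.2 and 28.9 CPM in neonatal and 27.2, 16.5 and 14.5 CPM in adult libraries. Adult cells had less Cdon than fetal cells (log2 -0.98, SE 0.225, edgeR adjusted p = 0.00348). Gpc3, a glypican that competes with Ptch1 for ligand, was at 285, 289 and 93.5 CPM in fetal, 138, 139 and 141 CPM in neonatal and 94.8, 31.1 and 20.9 CPM in adult libraries. The low fetal value was again that of replicate 3, and it overlapped the highest adult library. Adult Gpc3 was lower than fetal by the test (log2 -2.18, SE 0.583, edgeR adjusted p = 0.00852).

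Lrp2, an endocytic receptor that binds Shh, was at 7.86 ± 2.67 CPM in fetal, 1.31 ± 0.0947 CPM in neonatal and 0.543 ± 0.276 CPM in adult cells (neonatal against fetal log2 -2.58, SE 0.335, edgeR adjusted p = 5.859e-04). Of these 4 genes 1 fell in neonatal against fetal cells, 3 in adult against fetal and 3 in adult against neonatal cells, and 0 rose, where 18.0%, 35.5% and 31.8% of all genes fell. The last count was 0 without any 1 of the neonatal libraries and 1 without adult replicate 2 or 3. The co-receptor genes Boc and Gas1 were not analysed here.

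Of 18 further genes of intracellular transduction that were tested, 3 rose and 0 fell from fetal to neonatal cells, where 18.3% of all genes rose and 18.0% fell. These were Evc2 (log2 1.02, SE 0.192, edgeR adjusted p = 0.00394) and Evc (0.77, SE 0.139, 0.00301), which encode the complex that holds Smoothened at the base of the cilium, and the kinase gene Dyrk2 (0.37, SE 0.0812, 0.00783), whose adjusted p was 0.137 with library size alone as the scaling. Evc2 was at 58.4, 49.7 and 31.4 CPM in fetal and at 92.1, 97.5 and 93.5 CPM in neonatal libraries, which did not overlap. In adult against fetal cells 4 of the 18 rose and 9 fell, where 34.9% of all genes rose and 35.5% fell. In adult against neonatal cells 4 rose and 9 fell, beside 31.6% and 31.8% of all genes. The 4 risers of the last comparison were 2 with the filter dropped, and 2 without any 1 of the neonatal libraries or without adult replicate 1 or 2. Sufu, the inhibitor that binds the Gli proteins, was at 14.04 ± 1.23, 10.9 ± 1.18 and 8.70 ± 2.47 CPM, with adult cells below fetal ones (log2 -0.69, SE 0.193, edgeR adjusted p = 0.00955).

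The 3 largest falls of this list in adult against fetal cells were in kinase genes. Gsk3b, whose product marks Gli proteins for processing, was at 54.1, 57.5 and 67.2 CPM in fetal, 54.6, 53.2 and 49.8 CPM in neonatal and 32.8, 31.2 and 29.95 CPM in adult libraries (adult against fetal log2 -0.93, SE 0.0918, edgeR adjusted p = 1.565e-05). Csnk1a1, casein kinase 1 alpha, changed by -0.82 in the same comparison (SE 0.0627, edgeR adjusted p = 2.828e-06), and Stk36, a relative of the fly kinase Fused, by -0.90 (SE 0.141, edgeR adjusted p = 3.056e-04). Arrb2, a beta-arrestin gene, rose most, from 2.16 to 2.60 CPM in fetal to 26.9 to 46.2 CPM in adult libraries (log2 3.99, SE 0.227, edgeR adjusted p = 4.504e-07). From fetal to neonatal cells Arrb2 had no detected change (log2 0.20, SE 0.246, edgeR adjusted p = 0.559). The macrophage markers also rose from fetal to adult cells, and their part in the rise of Arrb2 was not tested.

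Genes reported as hedgehog targets in other tissues changed in both directions in adult cells. Apart from the members, 11 were tested: 1 rose and 0 fell from fetal to neonatal cells, 4 rose and 4 fell from fetal to adult cells, and 4 rose and 3 fell from neonatal to adult cells. The shares of all genes that rose and fell were 18.3% and 18.0%, 34.9% and 35.5%, and 31.6% and 31.8% in the same order, so the adult counts lie near the background. From fetal to neonatal cells the counts were 2 and 3 without fetal replicate 3 and 0 risers without fetal replicate 1 or 2 or neonatal replicate 2 or 3. The 3 that fell from neonatal to adult cells were 1 without adult replicate 2 or 3. Ccnd2, a D-type cyclin, was at 197, 209 and 142 CPM in fetal, 157, 152 and 139 CPM in neonatal and 31.2, 36.0 and 43.8 CPM in adult libraries (adult against fetal log2 -2.30, SE 0.165, edgeR adjusted p = 2.077e-06). Its relative Ccnd1 went the other way, from 198, 198 and 258 CPM in fetal to 402, 405 and 431 CPM in adult libraries (log2 0.92, SE 0.102, edgeR adjusted p = 3.230e-05).

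Igf1, a growth factor gene that macrophages also express, rose from 28.1, 32.1 and 16.9 CPM in fetal to 415, 240.2 and 210 CPM in adult libraries (log2 3.48, SE 0.309, edgeR adjusted p = 1.140e-05). The part of macrophages in the rise of Igf1 was not tested. Snai1, a transcription factor of mesenchymal cells, rose in both steps, by 0.63 (SE 0.179, edgeR adjusted p = 0.0244) and then by 1.12 (SE 0.178, edgeR adjusted p = 5.002e-04). The call of its first step was lost with library size alone (adjusted p = 0.0843) and without fetal replicate 1 (0.0522), fetal replicate 2 (0.0677), neonatal replicate 2 (0.0734) or neonatal replicate 3 (0.0648). Osr1, a transcription factor gene of early heart and kidney mesoderm, was at 110.4, 101 and 21.2 CPM in fetal and at 20.9, 19.4 and 17.8 CPM in adult libraries (log2 -2.003, SE 0.501, edgeR adjusted p = 0.00609). Here too fetal replicate 3 was the low library, close to the adult ones. The median log2 fold change of the 11 genes was -0.058, -0.52 and -0.086 in the 3 comparisons.

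The primary cilium, in which the pathway is carried, was represented by 34 tested genes. From fetal to neonatal cells 3 rose and 1 fell (18.3% and 18.0% of all genes), with 7 risers without fetal replicate 3 and 1 without any 1 of the neonatal libraries. From fetal to adult cells 6 rose and 15 fell, and from neonatal to adult cells 5 rose (3 without neonatal replicate 1 or 3 or adult replicate 3) and 15 fell. Over all genes 34.9% rose and 35.5% fell in the former comparison, and 31.6% and 31.8% in the latter. The list medians were -0.25 and -0.33 on the log2 scale, beside -0.0127 and -0.0065 over all genes. Dync2h1, the motor that returns cargo from the ciliary tip, was at 36.7, 38.9 and 34.3 CPM in fetal, 36.3, 40.8 and 38.7 CPM in neonatal and 15.8, 14.1 and 16.0 CPM in adult libraries (adult against neonatal log2 -1.33, SE 0.0905, edgeR adjusted p = 2.360e-06). The fetal and neonatal libraries overlapped, and all 3 adult libraries were lower. Kif3a, a subunit of the outward motor, changed by -1.02 in adult against fetal cells (SE 0.124, edgeR adjusted p = 5.717e-05), and Arl13b, a ciliary GTPase, by -1.01 in adult against neonatal cells (SE 0.0951, edgeR adjusted p = 1.700e-05).

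Tctn1, a transition zone gene, was the exception in size. It was at 13.7, 13.8 and 12.1 CPM in fetal, 24.6, 26.5 and 25.1 CPM in neonatal and 196, 180.3 and 158 CPM in adult libraries (adult against fetal log2 3.76, SE 0.101, edgeR adjusted p = 5.014e-09). The macrophage markers also rose with age, and their part in the rise of Tctn1 was not tested.

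**Figure D5:**
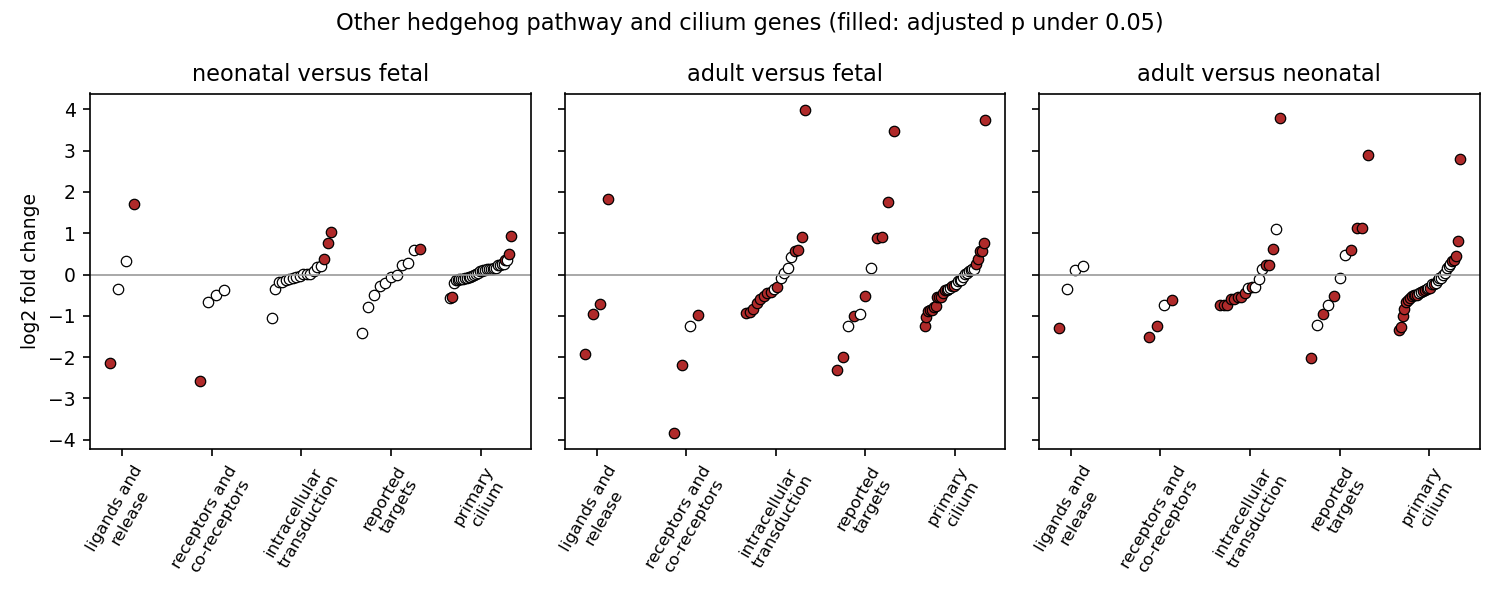
Change of the other pathway genes in each pair of ages. The y axis is the log2 fold change of the first age over the second, the x axis gives the 5 gene lists, each point is 1 tested gene other than the members, and filled points have an edgeR adjusted p under 0.05. In adult against fetal cells 15 of 34 cilium genes and 9 of 18 transduction genes are filled below 0, with Arrb2 at 3.99 and Tctn1 at 3.76 the highest points of those lists.

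The genes whose log2 CPM followed a member most closely over the 9 libraries were named by Pearson's r among genes with a mean of at least 1 CPM. The libraries of an age share that age, so these coefficients are descriptions and have no p. Closest to Ptch1 were LOC100302465 (0.982), Nudt5 (0.972) and Ccar2 (0.970). Wipf3 (0.995) and Aaed1 (0.994) followed Smo, as did Chst3 (0.996), which was not among the closest 3 with a prior count of 0.5. Closest to Gli2 were Fzd6 (0.980), Cand2 (0.979) and Ppm1l (0.978), and to Gli3 Mapk1ip1l (0.977) and Nfib (0.977). For Gli1 they were Cdt1 (0.949), LOC100912041 (0.930) and Gins1 (0.930), the last of which was also not among the closest 3 with the other prior count. Nudt5, for example, was at 48.1 ± 0.7004 CPM in fetal, 34.3 ± 1.43 CPM in neonatal and 36.9 ± 1.70 CPM in adult cells, the same order of ages as Ptch1 with a smaller change.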

How the data were processed

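The members and gene lists were chosen with earlier results of these data known. Whole-number counts per gene were deposited for the 9 libraries. The authors made them with featureCounts 1.6.3 and an rn6 annotation, with no strand option, per the file headers, and the submitters' processing notes also name FastQC, Trimmomatic 0.39, STAR 2.5.2b, Subread 1.6.3 and DESeq2. The second deposited table holds signal values that equal the counts divided by 1 size factor per library, and it served only as an alternative scaling. Exon lengths came from the count table, per the file headers.

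Differences between ages were tested here with edgeR 4.0.16 in R 4.3.3: filterByExpr by age, TMM, and a robust quasi-likelihood fit of all 9 libraries with age as the only term. The Benjamini-Hochberg adjustment ran over the 11337 genes that passed the filter, and 5 of the 6 members passed. The threshold was an adjusted p of 0.05. Each standard error is the fold change over the square root of F. Log2 CPM used a prior count of 2. The script was tested on simulated data.

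The text names the 6 members, the ligand, receptor and inhibitor genes, and from the longer lists the 3 genes per direction and comparison with the largest change past the threshold. Some of these are given only in the counts, and a few genes the rules would name are not reported here. Alternatives were DESeq2 1.42.0, the authors' size factors, library size alone, no filter, fits of 2 ages only, a replicate term, and leaving out each library. No pair of libraries of an age agreed within counting error (chi-square per degree of freedom at least 2.05). Promoter sequences came from RefSeq on GRCr8.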

Additional observations from a re-analysis of the deposited data

How the results depend on the processing

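Outside of leaving out libraries, the 88 member fold changes under other settings kept their direction and their side of the threshold, and all 18 counts of genes called stayed within 1.5 times. In the fits of 2 ages alone, Gli1 did not pass the filter in neonatal against fetal and adult against neonatal cells. The replicate numbers did not mark pairs: 0 of 9 same-numbered pairs of libraries had deviations correlated over 0.1 (-0.065 to 0.052), and 7 of 18 combinations fitted best with their own number. With the replicate block, 3713, 7801 and 6985 genes passed in the 3 comparisons in place of 4114, 7987 and 7197, and no member call changed. Leaving out 1 library at a time, the genes called in neonatal against fetal cells ranged from 2476 to 4679 (2607, 2476 and 2575 without neonatal replicates 1, 2 and 3). In the same comparison Smo ranged from -0.100 to 0.0145 on the log2 scale, positive without fetal replicate 1, and Gli1 from -0.99 to 0.19, positive without fetal replicate 3. Gli1 in adult against fetal cells ranged from -0.010 to 1.16, negative without fetal replicate 2, and none of these values passed the threshold. Gli2 in adult against neonatal cells ranged from -0.60 to -0.42 (edgeR adjusted p from 0.00512 to 0.0638). With few counts, Gli1 and Hhip are limited by depth, and the causes of the other changes were not tested. Of the list counts under other settings, 167 stayed within 1.5 times and 13 did not.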
